A study of Mus musculus with 16 samples.

Results

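The 44 genes described here make lysosomal proteins and the proton pump that acidifies the lysosome. They are 9 proteases, 6 glycosidases, 4 lipid hydrolases and saposins, 7 channels, transporters and cholesterol exporters, 7 membrane glycoproteins and sorting proteins, and 11 subunits of the vacuolar H+-ATPase (V-ATPase). They were chosen by name, with earlier results of these data known, and all 44 were found among the 23235 rows of the deposited table. The table gives FPKM, fragment numbers corrected for the length of the transcript and the size of the library. All 44 also passed the filter on low values, which asked for 1 FPKM or more in 2 or more libraries and left 14171 rows for testing.

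The study sorted skin of mouse embryos at embryonic day 14.5 by fluorescence-activated cell sorting (FACS) into 8 cell fractions, with 2 libraries of each. The labels call the fractions Mc, Sch, Neg, Epi, Pc, Fb, DC and DCSch without spelling the names out, and background knowledge of the study gives the reading melanocyte, Schwann cell, negative, epidermis, placode, fibroblast, dermal condensate, and dermal condensate with Schwann cells. No strain, genotype, transgene or treatment is given in the labels used here, nor is it said which proteins served for sorting or how many embryos went into a library. Nothing says that the 2 libraries of a fraction came from separate embryos, so the p-values rest on the spread between samples that may be technical replicates. Per the labels' protocols, 6 ng of RNA (integrity number 8.8 or higher) was amplified to cDNA before library making.

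The lysosome is an acidic organelle in which proteases, glycosidases and lipid hydrolases break down material taken up by the cell or delivered by autophagy. The V-ATPase pumps protons across its membrane: the V1 sector, in the cytosol, hydrolyses ATP, and the V0 sector, in the membrane, conducts the protons. Pigment cells build the melanosome, an organelle related to the lysosome, which takes up proteins by some of the same sorting routes and is also acidified by the V-ATPase in its early stages. Factors of the MiT family bind E-box letters in promoters of lysosomal genes: TFEB is known for an element with CACGTG at its core, and MITF, the master factor of melanocytes, for TCACGTG and TCATGTG.

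To show these letters in the genes measured here, the RefSeq promoter windows of the GRCm38.p6 assembly, from 250 bases before to 50 after an annotated start, were searched on both strands. A window was at hand for 37 of the 44 genes and for 27025 genes in all. A gene with several annotated starts could have several windows, and it counted where any of them held the letters. Such genes had more chances of a match. CACGTG was in 14 of the 37 genes (37.8%) and in 8.09% of all genes with a window. TCACGTG, which contains CACGTG, was in 13 of the 37 (35.1%) and in 4.29% of all genes. GTCACGTG was in 10 (27%) and in 2.55% of all genes. TCATGTG was in 9 (24.3%) and in 4.31% of all genes. These are counts of letters, not of bound sites. For each of the 13 genes with TCACGTG, the match nearest to the start is printed with 10 bases on either side, 5′ to 3′ on the strand of the gene, with the matching letters in capitals, including the final A where the letters read the same on both strands (TCACGTGA). The first 8 genes were called higher in Mc than in the other fractions, as described below, and the last 5 were not called.
Ctsa (chr2:164833767-164833794, plus strand): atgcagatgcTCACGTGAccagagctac
Ctsd (chr7:142387909-142387936, minus strand): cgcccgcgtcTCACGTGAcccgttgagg
Dpp7 (chr2:25356389-25356416, minus strand): cgccagactaTCACGTGAtgctgccccg
Clcn7 (chr17:25133387-25133414, plus strand): cgatgatagaTCACGTGAgacctgggcg
Mfsd1 (chr3:67582739-67582766, plus strand): acacacgtgaTCACGTGAgtgctgccgc
Lamp1 (chr8:13159135-13159161, plus strand): cgtgaccacaTCACGTGcggaacggag
Atp6v0b (chr4:117887332-117887358, minus strand): ggtcggcgcaTCACGTGcgccggtcag
Atp6v0d1 (chr8:105566051-105566078, minus strand): cctactgcggTCACGTGAgacgcggtgc
Gaa (chr11:119267812-119267838, plus strand): ttctgtgcgaTCACGTGtttgactctg
Gla (chrX:134601183-134601210, minus strand): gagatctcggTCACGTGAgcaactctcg
Glb1 (chr9:114401019-114401045, plus strand): tgcttctgagTCACGTGgcctacagag
Mcoln1 (chr8:3500463-3500490, plus strand): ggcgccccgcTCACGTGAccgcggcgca
Atp6v1a (chr16:44139374-44139401, minus strand): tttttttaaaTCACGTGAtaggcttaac

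The set with these letters thus holds proteases, glycosidases, channels, a membrane glycoprotein and pump subunits. Among the genes later called higher in Mc, 8 of the 20 with a window held TCACGTG (40%) and 6 held TCATGTG (30%), and among the genes not called the counts were 5 (29.4%) and 3 (17.6%) of 17. Mfsd1, a transporter of the lysosomal membrane, had 5 matches of TCACGTG, all in the 150 bases before its start. Dpp7, a dipeptidyl peptidase, had 1 match of TCACGTG and 2 of TCATGTG in the same stretch. Both stretches are shown whole, 5′ to 3′ on the strand of the gene, with the matches in capitals (CACGTGA and CACATGA are the same letters read on the opposite strand).
Mfsd1 (chr3:67582618-67582767, plus strand): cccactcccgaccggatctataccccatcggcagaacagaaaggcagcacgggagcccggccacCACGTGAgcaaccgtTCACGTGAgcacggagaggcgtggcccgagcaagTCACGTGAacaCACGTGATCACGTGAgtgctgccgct
Dpp7 (chr2:25356333-25356482, minus strand): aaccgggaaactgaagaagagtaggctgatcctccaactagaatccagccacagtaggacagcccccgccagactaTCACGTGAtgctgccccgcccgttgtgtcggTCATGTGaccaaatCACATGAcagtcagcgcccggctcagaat

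Mc was compared with the mean of 6 fractions, Sch, Neg, Epi, Pc, Fb and DC. DCSch was left out of that mean because it joins DC and Sch. Differences are on the log2(FPKM + 1) scale and were tested with limma over all 14171 rows, and a gene was called where the Benjamini-Hochberg adjusted p was under 0.05 and the log2 difference was 1 or more in either direction.

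Summed FPKM per library ran from 439201 to 606437, and 11273 to 12137 rows reached 1 FPKM. The fractions carried the marker genes of their names: the summed FPKM of 7 melanocyte genes, for example, was 6629 and 5047 in the Mc libraries, with 7 of 7 at 1 FPKM or more, 168 and 245 in the Epi libraries, also with 7 of 7, and 6.51 to 39.1 in the other 12 libraries. No melanocyte marker was listed at 0 in any library. Markers of other cells were lower in Mc than in the fractions named for them, but not absent. The sum of 4 keratinocyte genes was 337 and 170 FPKM in Mc, against 3238 and 2465 FPKM in Epi. In the libraries of Sch, Neg, Fb, DC and DCSch it was 22.2 to 166 FPKM, below Mc. The sum of 5 Schwann cell genes was 236 and 247 FPKM in Mc, against 1553 and 1805 FPKM in Sch. In the libraries of Neg, Epi, Pc, Fb and DC it was 5.86 to 87.2 FPKM, also below Mc. The part of such cells in the Mc values was not tested. Macrophages are rich in lysosomes, and the sum of 10 macrophage genes was 15.2 and 21.3 FPKM in Mc, with 6 and 7 of them at 1 FPKM or more, against 163 and 159 FPKM in Neg and 0.672 to 20.4 FPKM in the other 12 libraries. In sorted bulk RNA, fewer cells of a type and less RNA per cell cannot be told apart.

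The 44 genes as a group took a larger share of the Mc libraries than of any other. Their FPKM made up 0.864% and 0.777% of the total in the Mc libraries and 0.237% to 0.574% in the other 14, where Fb was highest and Pc lowest. By gene, Mc had the highest mean of the 8 fractions for 30 of the 44 genes and the lowest for 0. Fb was highest for 9, DC for 2, and Sch, Neg and Epi for 1 each, while Pc was lowest for 19.

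Against the mean of the 6 fractions, 21 of the 44 genes were called higher in Mc and 0 lower. Over all rows tested, 5.22% were called higher and 5.80% lower. The 44 genes were chosen with earlier results of these data known, so the shares over all rows stand beside them as a description. The median log2 difference of the 44 was 0.98, against -0.07 for all rows, and 37 of the 44 lay above 0. Without the fold minimum 29 were higher and 1, Ctsh, was lower, where the shares over all rows were 9.69% and 13.6%. At an unadjusted p under 0.05, 34 were higher and 3 lower, where 13.6% and 20.3% of all rows were. In 24 of the 44 genes both Mc libraries lay above all 12 libraries of the 6 fractions (4.93% of all rows), and in 0 did both lie below (2.40% of all rows). The higher genes came from 6 of the 8 classes, all but the lipid hydrolases and saposins and the accessory pump subunit. In a second list of lysosome and pump genes, described below, genes of both these classes were called higher.

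**Figure D1:**
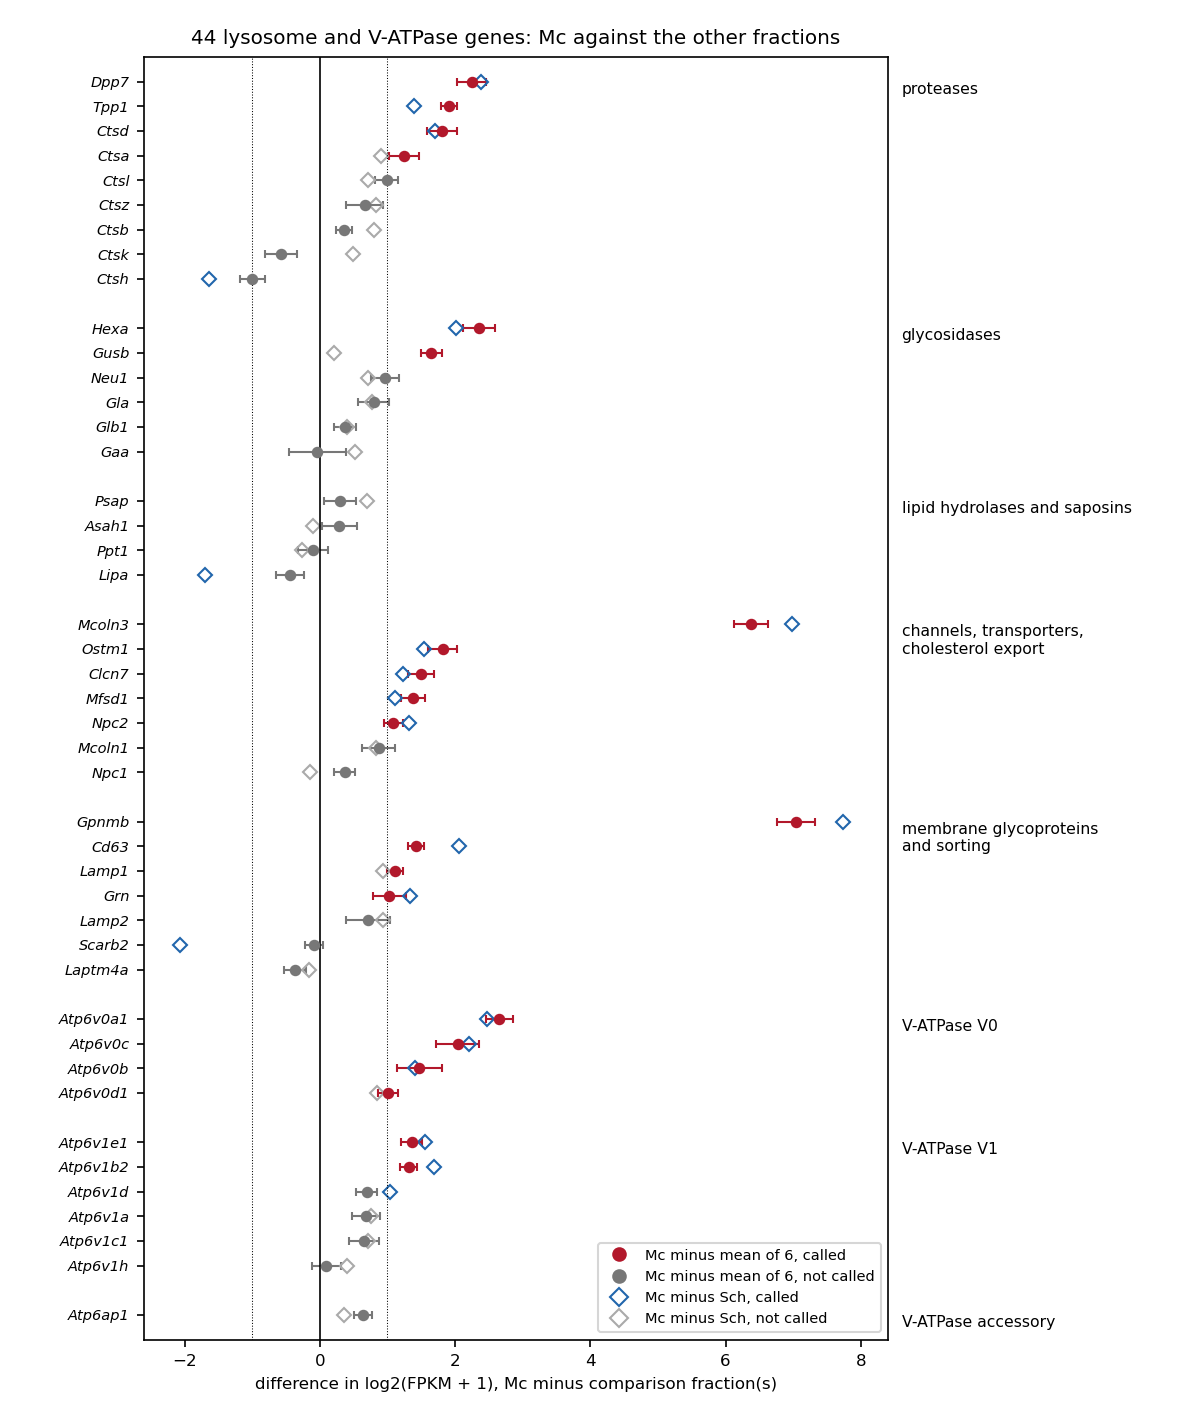
Difference in log2(FPKM + 1) of each of the 44 genes (rows, grouped by class), Mc minus the mean of the 6 fractions (filled circles) and Mc minus Sch (open diamonds), with colour for called genes. Gpnmb (7.03) and Mcoln3 (6.38) lie far to the right, and in the filled circles the 4 V0 subunits all lie above 1 and the lipid hydrolases and saposins between -0.44 and 0.29, while in the open diamonds Atp6v0d1 is at 0.84 and Lipa at -1.69.

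The membrane sector of the proton pump was higher in Mc in all 4 subunits measured among the 44 (median log2 difference 1.76). Of 5 other V0 genes tested in the second list, described below, 1 was higher and 1 lower (median 0.33). Atp6v0a1 (chr11:101009452-101063717, mm10), which makes the a1 isoform of the large subunit that steers the pump to an organelle and lines the proton path, had 73.0 and 64.7 FPKM in Mc. It had 11.2 and 11.96 FPKM in Sch, 12.7 and 10.9 in Neg, 12.7 and 12.01 in Epi, 8.91 and 6.39 in Pc, 10.4 and 5.92 in Fb, 10.7 and 10.04 in DC, and 10.8 and 7.05 in DCSch. The Mc libraries thus stood 5.57-fold above the mean of the next fraction, Epi, without overlap, and the log2 difference from the 6 fractions was 2.65 (SE 0.20, limma adjusted p = 2.84e-06).

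Atp6v0c (chr17:24163865-24169429), the proteolipid that forms the rotating ring, had 310 and 369 FPKM in Mc, and between 53.3 and 144 FPKM, with a median of 86.9, in the 12 libraries of the 6 fractions. It was among the most abundant of the pump genes in Mc and 2.04 higher on the log2 scale (SE 0.32, limma adjusted p = 0.000687). Pseudogenes of Atp6v0c are annotated, and how the authors' counting shared reads with them is not given in the sources used here.

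Atp6v0b, another ring subunit, had 86.8 and 79.4 FPKM in Mc and 15.5 to 57.0 FPKM, median 30.8, in the 12 libraries. Its log2 difference was 1.47 (SE 0.33, limma adjusted p = 0.00655). The call was lost when either Mc library was left out: 1.41 (adjusted p = 0.0782) without Mc replicate 1 and 1.54 (adjusted p = 0.0680) without Mc replicate 2. Atp6v0d1, which couples the ring to the stalk, had 101 and 87.2 FPKM in Mc and 33.0 to 60.7 FPKM, median 46.5, in the 12 libraries, a log2 difference of 1.01 (SE 0.15, limma adjusted p = 0.000559). As a value at the fold minimum, it fell below it, to between 0.90 and 0.99, when any of 6 libraries was left out (Mc replicate 1, or replicate 2 of Neg, DC, Sch, Pc or Epi).

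In the cytosolic V1 sector, 2 of 6 subunits were called higher (median log2 difference 0.69) and 5 of 6 were higher without the fold minimum. The second list, described below, had 0 of 3 tested V1 genes called (median 0.99). Atp6v1b2, the B subunit found in most tissues, had 71.5 and 72.3 FPKM in Mc and 19.7 to 47.9 FPKM, median 28.7, in the 12 libraries, with a log2 difference of 1.32 (SE 0.13, limma adjusted p = 1.80e-05). Atp6v1e1, of the stator stalks, had 81.8 and 97.3 FPKM in Mc and 21.2 to 61.3 FPKM, median 32.6, in the 12 libraries, with a log2 difference of 1.36 (SE 0.15, limma adjusted p = 5.96e-05). These 2 subunits are the called ones.

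Atp6v1a, the catalytic subunit, had 42.2 and 53.1 FPKM in Mc and 20.02 to 41.1 FPKM in the 12 libraries. Its log2 difference of 0.69 was under the fold minimum (SE 0.21, limma adjusted p = 0.0329), as was that of Atp6v1d, of the central shaft, which was also 0.69 (SE 0.16, adjusted p = 0.00854). Both, with Atp6v1c1, still lay above all 12 libraries in both Mc libraries. Atp6v1h, a regulatory subunit, was the exception, with 21.8 and 23.3 FPKM in Mc and 13.9 to 31.7 FPKM in the 12 libraries, and a log2 difference of 0.10 (SE 0.21, adjusted p = 0.802). Atp6ap1, an accessory protein of pump assembly, had 92.2 and 85.2 FPKM in Mc and 40.6 to 74.1 FPKM in the 12 libraries, without overlap but with a log2 difference of 0.64. Of the 11 pump genes together, 6 were called higher and 10 were higher without the fold minimum.

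**Figure D2:**
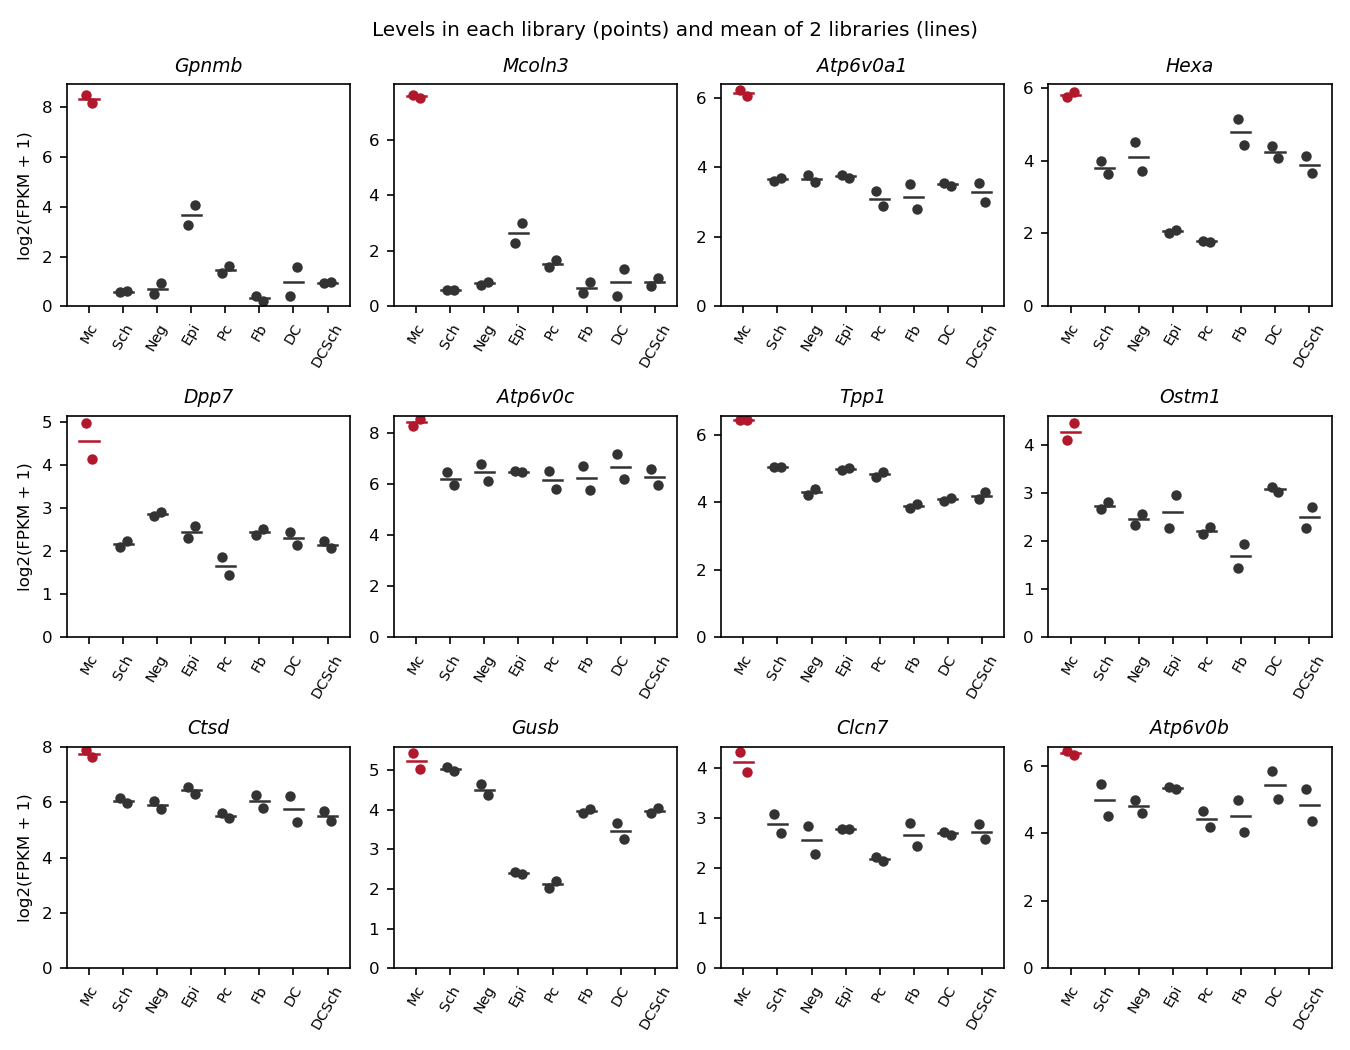
Level, as log2(FPKM + 1), of leading genes in each of the 16 libraries (points) with the mean of each fraction (line), Mc at the left. Gpnmb and Mcoln3 are near the floor outside Mc, with a small step in Epi, whereas Atp6v0a1, Dpp7 and Tpp1 start from a moderate level in every fraction.

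Among the channels, transporters and cholesterol exporters, 5 of 7 were called higher in Mc (median log2 difference 1.38). In the second list, described below, 2 of 14 tested genes of this class were higher (median 0.12). Mcoln3 (chr3:146121791-146140646), a cation channel of endosomes and lysosomes whose varitint-waddler alleles affect coat colour and hearing in mice, had 196 and 181 FPKM in Mc. It had 0.500 and 0.486 FPKM in Sch, 0.699 and 0.842 in Neg, 3.82 and 6.96 in Epi, 1.64 and 2.18 in Pc, 0.389 and 0.834 in Fb, 0.305 and 1.57 in DC, and 0.654 and 1.03 in DCSch. The level in Mc was 35.0-fold that of Epi, the next fraction. The log2 difference from the 6 fractions was 6.38 (SE 0.25, limma adjusted p = 2.14e-08).

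Clcn7, the chloride-proton exchanger of the lysosome, had 19.1 and 14.3 FPKM in Mc and 3.41 to 7.48 FPKM, median 5.56, in the 12 libraries, with a log2 difference of 1.495 (SE 0.20, limma adjusted p = 0.000219). Ostm1, its obligate partner subunit, whose loss gives grey-lethal mice, had 16.1 and 21.1 FPKM in Mc and 1.70 to 7.80 FPKM, median 4.497, in the 12 libraries, with a log2 difference of 1.81 (SE 0.21, limma adjusted p = 8.29e-05). Both partners were thus above every library of the 6 fractions in both Mc libraries.

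Mfsd1 had 77.2 and 92.4 FPKM in Mc and 18.3 to 43.0 FPKM, median 32.2, in the 12 libraries, with a log2 difference of 1.38 (SE 0.18, limma adjusted p = 0.000166). Of the pair that exports cholesterol, Npc2, the soluble carrier, had 62.8 and 63.4 FPKM in Mc and 20.2 to 60.1 FPKM in the 12 libraries and was called higher by 1.09 (SE 0.13, limma adjusted p = 0.000131). Npc1, the membrane partner, had 18.1 and 14.1 FPKM in Mc, inside the range of 6.41 to 27.1 FPKM in the 12 libraries, and its log2 difference of 0.37 was not called (SE 0.15, adjusted p = 0.111). Mcoln1, the widely expressed mucolipin, had 23.7 and 12.5 FPKM in Mc and 5.59 to 16.1 FPKM in the 12 libraries, and its difference of 0.87 was under the fold minimum (SE 0.24, limma adjusted p = 0.0231).

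Among the membrane glycoproteins and sorting proteins, 4 of 7 were called higher (median log2 difference 1.03). The second list, described below, had 3 of 11 tested genes of this class higher (median 0.47). Gpnmb (chr6:49036518-49058182), a glycoprotein related to Pmel that is known from melanosomes, macrophages and osteoclasts, had 360 and 285 FPKM in Mc. It had 0.492 and 0.528 FPKM in Sch, 0.401 and 0.928 in Neg, 8.70 and 15.7 in Epi, 1.53 and 2.07 in Pc, 0.339 and 0.174 in Fb, 0.317 and 1.96 in DC, and 0.915 and 0.964 in DCSch. Mc stood 26.4-fold above Epi, with a log2 difference from the 6 fractions of 7.03 (SE 0.28, limma adjusted p = 2.22e-08), the largest of the 44. Neg, where the macrophage markers were highest, had the 0.401 and 0.928 FPKM given above, and the part of macrophages in the Gpnmb values was not tested. As for Mcoln3, the next fraction was Epi, whose mean was 3.79% of that of Mc for Gpnmb and 2.86% for Mcoln3. The melanocyte markers, given above, were also higher in Epi than in the other fractions outside Mc, and their part in these Epi values was not tested.

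Lamp1, a main glycoprotein of the lysosomal membrane, had 297 and 322 FPKM in Mc and 116 to 171 FPKM, median 147, in the 12 libraries, with a log2 difference of 1.11 (SE 0.12, limma adjusted p = 4.37e-05). Lamp2 had 84.5 and 121 FPKM in Mc and 37.2 to 111 FPKM in the 12 libraries, and was not called (0.72, SE 0.32, adjusted p = 0.144). Cd63, a tetraspanin that sorts Pmel in melanosomes, was called higher in Mc by 1.43 (SE 0.12, limma adjusted p = 5.96e-06), with 891 and 747 FPKM in Mc, but was at 908 and 1018 FPKM in Fb. The groups therefore overlapped. A pseudogene of Cd63 is annotated, so its values carry the same doubt as those of Atp6v0c.

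Grn, which makes progranulin, a secreted and lysosomal protein, had 104 and 84.6 FPKM in Mc and 109 and 72.3 FPKM in Fb. It was called higher than the 6 fractions by 1.03 (SE 0.24, limma adjusted p = 0.00978), a call that was lost when any of 6 libraries was left out (either of Mc, or replicate 2 of Fb, DC, Sch or Epi), with differences between 0.88 and 1.18 and adjusted p-values between 0.00641 and 0.130. Laptm4a (-0.36) and Scarb2 (-0.08) were not called against the 6 fractions and are described below with the single fractions they differed from.

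Of the 9 proteases, 4 were called higher in Mc (median log2 difference 0.99). The second list, described below, had 1 protease higher and 1 lower of 10 tested (median 0.45). Dpp7 (chr2:25352290-25356332) had 30.7 and 16.6 FPKM in Mc and 1.75 to 6.61 FPKM, median 4.09, in the 12 libraries, with a log2 difference of 2.24 (SE 0.21, limma adjusted p = 1.67e-05). Its Mc libraries differed from each other more than those of the other leading genes, yet both lay above all others. Tpp1, a tripeptidyl peptidase lost in a childhood form of neuronal storage disease in humans, had 86.0 and 85.7 FPKM in Mc and 13.3 to 32.2 FPKM, median 23.1, in the 12 libraries, with a log2 difference of 1.91 (SE 0.12, limma adjusted p = 6.52e-07).

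Ctsd, the aspartic protease cathepsin D, had 236 and 198 FPKM in Mc and 37.8 to 94.1 FPKM, median 63.1, in the 12 libraries, with a log2 difference of 1.81 (SE 0.22, limma adjusted p = 0.000114). Ctsa, a carboxypeptidase that also protects Glb1 and Neu1 from breakdown, had 59.8 and 53.9 FPKM in Mc and 12.4 to 35.3 FPKM, median 23.0, in the 12 libraries, with a log2 difference of 1.25 (SE 0.22, limma adjusted p = 0.00182). The row of Ctsa in the file shares its locus with those of Neurl2 and Pltp. Among the cysteine cathepsins, Ctsl was above all 12 libraries, with 156 and 195 FPKM in Mc and 41.5 to 131 FPKM elsewhere, but its difference of 0.99 was just under the fold minimum (SE 0.17, limma adjusted p = 0.00115). Ctsb (0.36), Ctsz (0.66), Ctsk (-0.58) and Ctsh (-0.997) were not called.

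Of the 6 glycosidases, 2 were called higher (median log2 difference 0.88). The second list, described below, had 6 of 16 tested glycosidases higher (median 0.53). Hexa (chr9:59539667-59565105), the alpha subunit of the hexosaminidase lost in Tay-Sachs disease, had 52.2 and 58.0 FPKM in Mc. Fb was next with 34.3 and 20.4 FPKM, while Epi had 3.06 and 3.26 FPKM and Pc 2.49 and 2.43 FPKM. The log2 difference from the 6 fractions was 2.35 (SE 0.24, limma adjusted p = 2.64e-05). Gusb, the beta-glucuronidase, had 41.9 and 31.8 FPKM in Mc, 32.5 and 30.2 FPKM in Sch, 24.2 and 19.5 FPKM in Neg, and 3.08 to 15.2 FPKM in the libraries of Epi, Pc, Fb and DC. It was called higher than the 6 fractions by 1.65 (SE 0.16, limma adjusted p = 1.86e-05), and overlapped with Sch. Neu1, the sialidase, was low throughout but above all 12 libraries in Mc, with 4.81 and 3.71 FPKM in Mc and 0.978 to 3.57 FPKM elsewhere (log2 difference 0.97, limma adjusted p = 0.00508). Gla (0.80), Glb1 (0.37) and Gaa (-0.04) were not called.

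The lipid hydrolases and saposins had no call in Mc against the 6 fractions, as had the single accessory pump subunit. With limma, 0 of 4 were called in either direction and 0 of 4 passed an unadjusted p under 0.05, which 13.6% of all rows passed as higher and 20.3% as lower (median log2 difference of the class 0.09). Asah1, the acid ceramidase, had 13.9 and 14.8 FPKM in Mc and 7.01 to 20.5 FPKM in the 12 libraries. Psap, the precursor of the saposins that present lipids to their hydrolases, had 106 and 98.6 FPKM in Mc and 53.4 to 141 FPKM in the 12 libraries. Ppt1, which removes fatty acids from proteins, had 27.3 and 30.0 FPKM in Mc and 21.3 to 49.0 FPKM in the 12 libraries. Their log2 differences were 0.29, 0.29 and -0.10, and Lipa was at -0.44. With 4 genes in the class, and no test between classes, the contrast with the other classes is a description of these genes only. In the second list, described below, 2 of 7 genes of this class were called higher.

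**Figure D3:**
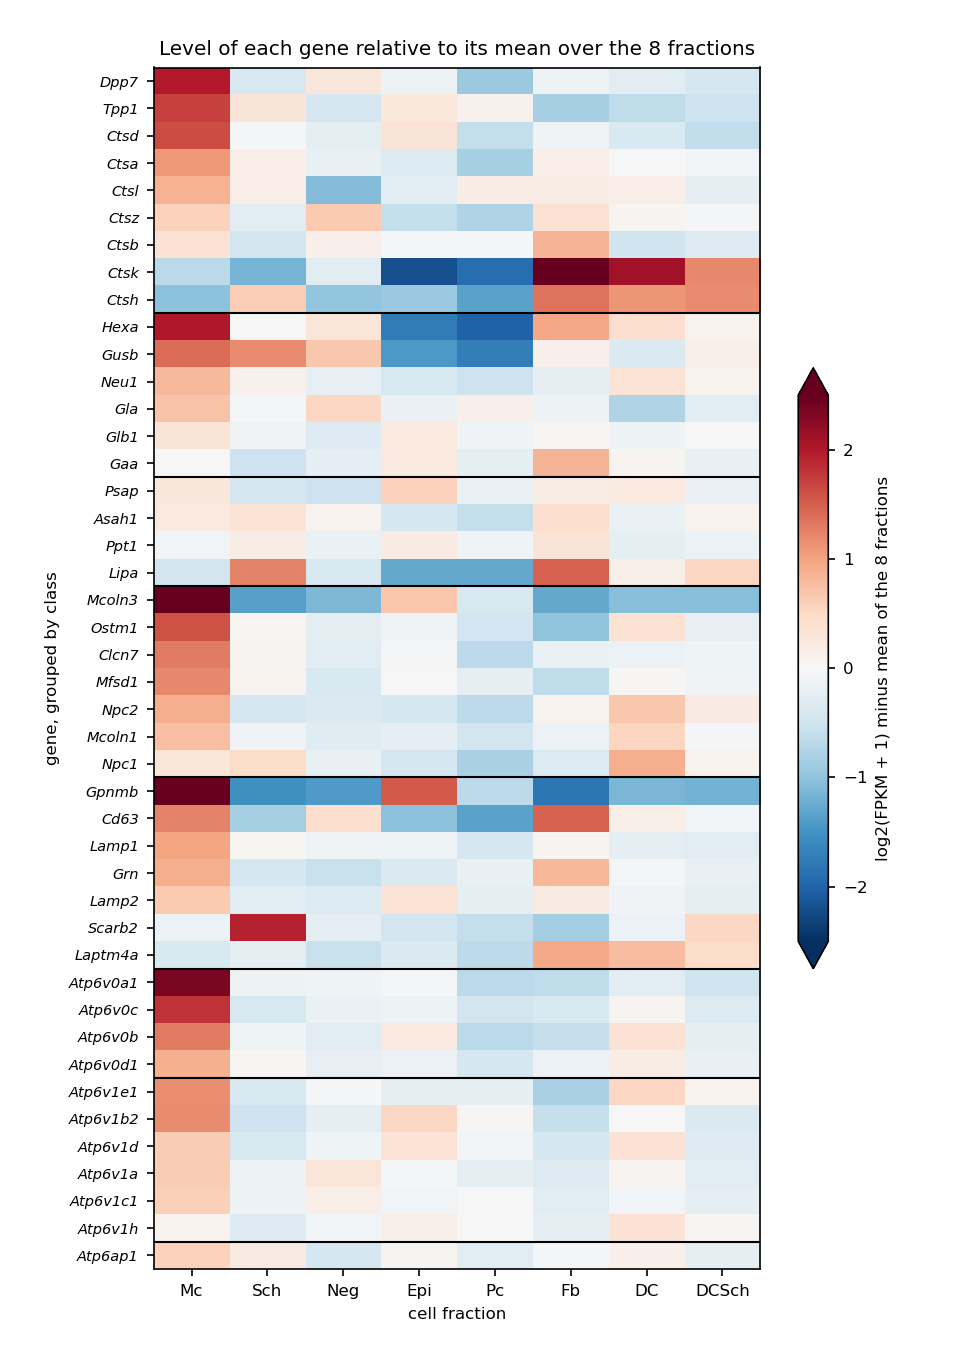
Level of each of the 44 genes (rows, grouped by class) in the 8 fractions (columns, mean of 2 libraries), as log2(FPKM + 1) minus the mean of the gene over the 8 fractions. The Mc column is the highest for 30 of the 44 genes, and Fb for 9, among them Ctsk, Ctsh, Lipa, Cd63 and Laptm4a.

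Set against each of the 6 fractions in turn, 8 of the 44 genes were higher in Mc than in every one, judged by the highest p of the 6, adjusted over all rows, and by a log2 difference of at least 1 from each. Of all rows, 1.16% passed this rule. They were Gpnmb, Mcoln3, Atp6v0a1, Dpp7, Tpp1, Ctsd, Clcn7 and Mfsd1, which span proteases, channels and transporters, a membrane glycoprotein and a V0 subunit. Gpnmb, Mcoln3, Atp6v0a1 and Tpp1 held this rank under every alternative tried, and the count fell to 4 without Mc replicate 1 and to 5 without Mc replicate 2, either library of Neg, Sch, Pc or Epi, or the filter on low values. Of the 21 alternatives, Dpp7 kept it in 19, Mfsd1 in 8, Ctsd in 6 and Clcn7 in 5. With the replicate number as a block the count was 11, with Hexa, Ostm1 and Atp6v0c added.

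By fraction, the count called higher in Mc was 26 against Pc, 23 against Epi, 23 against Neg, 18 against Fb, 18 against Sch and 17 against DC. The shares of all rows called higher in these comparisons were 9.07%, 9.03%, 5.72%, 7.59%, 4.53% and 10.9%. The comparisons share the Mc libraries. With the replicate number as a block, Atp6v0b was called against Epi as well, which made 24. Against Pc, all 44 genes had a difference above 0 (median 1.23), and 0 were called lower in Mc against Pc, Epi or Neg, where 7.47%, 8.90% and 9.98% of all rows were. The genes lower in Mc than some fraction were 4 against Fb (11.8% of all rows), 3 against DC (11.5% of all rows) and 3 against Sch (7.31% of all rows).

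Sch is the other fraction of neural crest origin, and the comparison of Mc with Sch asks which of the genes set the pigment cell apart from the glial lineage. Of the 44, 18 were called higher in Mc and 3 lower, with a median log2 difference of 0.84 against -0.01 for all rows. All 5 called channels and transporters, Clcn7, Ostm1, Mcoln3, Npc2 and Mfsd1, were also higher than in Sch. Gpnmb was 7.73 higher (SE 0.37, limma adjusted p = 8.83e-08), Mcoln3 6.99 (SE 0.33, adjusted p = 8.83e-08), Atp6v0a1 2.47 (SE 0.27, adjusted p = 3.66e-05) and Dpp7 2.39 (SE 0.28, adjusted p = 7.11e-05), the largest among the 44. In V0, 3 of 4 subunits were called, all but Atp6v0d1, and in V1, 3 of 6, Atp6v1b2, Atp6v1d and Atp6v1e1.

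The 3 genes lower in Mc than in Sch came from 3 classes. Scarb2 (chr5:92443873-92505608), the receptor that carries glucocerebrosidase to the lysosome, had 13.8 and 13.7 FPKM in Mc and 58.3 and 64.0 FPKM in Sch. It was at 21.6 and 23.2 FPKM in DCSch and 7.30 to 14.01 FPKM in the libraries of Neg, Epi, Pc, Fb and DC, so Sch stood alone, and the difference of Mc from Sch was -2.07 (SE 0.17, limma adjusted p = 4.56e-06). Lipa, the acid lipase that frees cholesterol from its esters, had 16.4 and 14.2 FPKM in Mc and 43.7 and 60.7 FPKM in Sch, a difference of -1.69 (SE 0.27, limma adjusted p = 0.000892). Ctsh, an aminopeptidase, had 8.12 and 5.01 FPKM in Mc and 27.4 and 17.7 FPKM in Sch, a difference of -1.64 (SE 0.25, limma adjusted p = 0.000561).

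Gusb was not called between Mc and Sch (0.21, SE 0.21, limma adjusted p = 0.613), nor was Lamp1 (0.93, SE 0.16, adjusted p = 0.00123), which missed the fold minimum. With every library rescaled to the same FPKM total, the median of all rows moved to -0.15 and that of the 44 genes to 0.67, and 15 were called higher. Atp6v0b lost its call there (1.23, limma adjusted p = 0.0628), as did Mfsd1 and Atp6v1d, at differences of 0.93 and 0.86. Atp6v0b also lost it with no filter on low values (1.40, adjusted p = 0.133) and with quantile normalization (1.39, adjusted p = 0.0587), and kept it in 5 of 11 alternatives. Clcn7 lost its call without Mc replicate 1 (1.04, adjusted p = 0.0658) or Sch replicate 2 (1.05, adjusted p = 0.0669), Grn without the same libraries (1.19, adjusted p = 0.101, and 1.17, adjusted p = 0.110), and Mfsd1 without Mc replicate 2 (0.98, adjusted p = 0.0597) or Sch replicate 1 (0.96, adjusted p = 0.0547). Atp6v1d also lost it without Sch replicate 1 (0.87, adjusted p = 0.0509), and Atp6v0b without either Mc library or Sch replicate 2 (0.94 to 1.47, adjusted p-values 0.150 to 0.352).

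The genes with the lowest difference in Mc from the 6 fractions were high in mesenchymal fractions or in Sch. Ctsk (chr3:95499286-95509362), the collagen-cleaving protease best known from osteoclasts, had 3.33 and 4.56 FPKM in Mc, against 50.2 and 64.6 FPKM in Fb and 29.3 and 35.9 FPKM in DC. DCSch had 15.1 and 19.0 FPKM, and Sch, Neg, Epi and Pc had 0.314 to 5.88 FPKM. It was lower in Mc than in Fb by a log2 difference of -3.56 (limma adjusted p = 5.16e-06) and than in DC by -2.77 (adjusted p = 2.75e-05), but not called against the mean of the 6 fractions (-0.58, SE 0.24, adjusted p = 0.104).

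Ctsh was at 8.12 and 5.01 FPKM in Mc, against 40.2 and 35.5 FPKM in Fb and 34.0 and 28.9 FPKM in DC. Against the 6 fractions its difference of -0.997 fell just short of the fold minimum (SE 0.19, limma adjusted p = 0.00251), and a pseudocount of 0.1, or leaving out any of 6 libraries, made it a call. Laptm4a, a small membrane protein of late endosomes and lysosomes, had 79.4 and 69.1 FPKM in Mc, against 154 and 225 FPKM in Fb and 163 and 169 FPKM in DC. It was called lower in Mc than in Fb (-1.32, limma adjusted p = 0.000595) and than in DC (-1.15, adjusted p = 0.00133), and not against the 6 fractions (-0.36, adjusted p = 0.140). Lipa was at 49.0 and 74.8 FPKM in Fb and differed from it in Mc by -1.92 (adjusted p = 0.000215). Ppt1 and Scarb2, at -0.10 and -0.08, were not called against the 6 fractions.

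Outside Mc, the 44 genes showed few differences between Neg and the 5 fractions Sch, Epi, Pc, Fb and DC. Gusb was called higher in Neg (1.11, SE 0.16, limma adjusted p = 0.000285), and Ctsl (-1.18, SE 0.17, adjusted p = 0.000256) and Ctsh (-1.15, SE 0.19, adjusted p = 0.000806) lower. That is 1 higher and 2 lower of 44, where 8.53% and 4.74% of all rows were called, so the share of the 44 was not above that of all rows. Without the fold minimum 6 were higher and 4 lower, where 13.2% and 11.2% of all rows were. Ctsl had 46.3 and 41.5 FPKM in Neg and 73.5 to 131 FPKM in the libraries of the 5 fractions, below all of them. Neg carried macrophage markers (163 and 159 FPKM summed over 10 genes, with 6 and 7 at 1 FPKM or more), mast cell markers (970 and 1174 FPKM over 5 genes), endothelial markers (277 and 195 FPKM over 3 genes, against 4.80 to 16.8 FPKM in the other 14 libraries) and 2 embryonic globins (32005 and 34818 FPKM), and their part in these values was not tested. The Gusb call was lost when libraries were rescaled to the same total (0.90) and without Neg replicate 1 (0.97, limma adjusted p = 0.0119).

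Between Epi and Fb, 4 of the 44 genes were called higher in Epi and 8 lower, where 10.5% and 14.0% of all rows were. The lower ones were led by Ctsk (-5.09, SE 0.31, limma adjusted p = 2.81e-07), Lipa (-2.75, SE 0.27, adjusted p = 8.81e-06), Hexa (-2.73, SE 0.31, adjusted p = 2.74e-05) and Cd63 (-2.496, SE 0.16, adjusted p = 3.44e-07), and included Ctsh, Gusb, Laptm4a and Grn. Without the fold minimum 8 were higher and 10 lower (15.3% and 17.9% of all rows). Cd63, for example, had 161 and 179 FPKM in Epi against 908 and 1018 FPKM in Fb. The higher ones were Gpnmb (3.35, SE 0.37, limma adjusted p = 2.06e-05), Mcoln3 (1.96, SE 0.33, adjusted p = 0.000551), Atp6v1b2 (1.10, SE 0.17, adjusted p = 0.000245) and Tpp1 (1.09, SE 0.16, adjusted p = 0.000188). Beside Gpnmb and Mcoln3 stand the melanocyte markers, at 168 and 245 FPKM in Epi against 6.51 and 7.79 FPKM in Fb, with a part that was not tested. Rescaling to the same total moved the median of all rows to -0.20 and the split of the 44 genes to 2 higher and 11 lower, Tpp1 and Atp6v1b2 falling to 0.82 and 0.83, while the split of all rows moved to 1129 higher and 2430 lower, where 1483 and 1987 were called as deposited. Grn lost its call without Epi replicate 2 (-0.99, adjusted p = 0.101) or Fb replicate 1 (-0.89, adjusted p = 0.1002).

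Between DC and Fb, 3 genes were called higher in DC and 3 lower (6.13% and 9.20% of all rows). Ostm1 (7.80 and 7.09 FPKM in DC, 1.70 and 2.81 FPKM in Fb), Atp6v1e1 (61.3 and 52.9 FPKM in DC, 23.2 and 21.2 FPKM in Fb) and Npc1 (22.7 and 27.1 FPKM in DC, 9.80 and 10.1 FPKM in Fb) were higher, by 1.40, 1.32 and 1.24. Ctsb (29.0 and 28.1 FPKM in DC, 74.8 and 72.8 FPKM in Fb), Cd63 (403 and 363 FPKM in DC) and Lipa (21.5 and 26.3 FPKM in DC) were lower, by differences of -1.34, -1.33 and -1.31. The limma adjusted p-values ran from 7.67e-05 to 0.00407. Without the fold minimum 7 were higher and 3 lower (8.93% and 12.2% of all rows). Fitted on the DC and Fb libraries alone, only Ctsb and Cd63 were still called.

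Between Pc and Epi, the epithelial fractions, 1 gene was called, Gpnmb, with 1.53 and 2.07 FPKM in Pc and 8.70 and 15.7 FPKM in Epi (-2.19, SE 0.37, limma adjusted p = 0.0109), where 0.155% of all rows were called higher and 1.37% lower in Pc. With the replicate number as a block, Mcoln3 was called lower as well. The Gpnmb call was lost when any of 3 libraries was left out (Pc replicate 1 or 2, or Epi replicate 2, adjusted p-values 0.0700 to 0.141). Melanocyte markers again ran with it, at 33.1 and 30.8 FPKM in Pc against 168 and 245 FPKM in Epi, and their part was not tested.

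Other genes of the lysosome and the pump were taken from a second list of 75, of which 67 passed the filter on low values. In Mc against the 6 fractions 16 were called higher and 2 lower (5.22% and 5.80% of all rows), with a median log2 difference of 0.47. Those with the largest differences were Atp6v0e2 (2.25), an isoform of a small V0 subunit, Mcoln2 (2.22), Sort1 (2.16), a sorting receptor, Manba (1.90), the beta-mannosidase, Scpep1 (1.60), a carboxypeptidase, and Tmem192 (1.48), a membrane protein, with limma adjusted p-values from 1.29e-06 to 0.000991. Of these, Atp6v0e2, with 12.6 and 11.2 FPKM in Mc against 16.3 and 18.1 FPKM in Sch, and Sort1, with 52.2 and 47.6 FPKM in Mc against 39.4 and 40.8 FPKM in Sch, were not called between Mc and Sch. Cpq, a carboxypeptidase, was lower in Mc (-1.42, limma adjusted p = 0.000453), with 1.67 and 2.16 FPKM in Mc and 17.7 and 26.9 FPKM in Fb. The list's 1 gene higher than each of the 6 fractions was Mcoln2, which none of those fractions carried past the filter on low values.

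The pump has 4 isoforms of the large a subunit, and only Atp6v0a1 was called higher in Mc. Atp6v0a2, known from the Golgi, had 12.1 and 11.1 FPKM in Mc and 8.09 to 15.6 FPKM in the 12 libraries (log2 difference 0.16, SE 0.15, limma adjusted p = 0.533). Tcirg1, which encodes the isoform best known from osteoclasts, had 14.6 and 9.63 FPKM in Mc and 5.30 to 17.2 FPKM in the 12 libraries (0.33, SE 0.34, adjusted p = 0.553). Atp6v0a4, known from kidney and inner ear, was lower in Mc, with 4.71 and 4.28 FPKM in Mc and 7.18 to 19.1 FPKM in the 12 libraries (-1.23, SE 0.14, limma adjusted p = 6.59e-05). The row of Atp6v0a4 shares its locus with Tmem213, so reads of overlapping genes may enter it.

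Of the mucolipins, Mcoln3 and Mcoln2 lie side by side, 9186 bases apart, and both were higher in Mc. Mcoln2 had 3.77 and 5.06 FPKM in Mc and at most 0.689 FPKM in the 12 libraries (2.22, SE 0.16, limma adjusted p = 1.92e-06). Per transcript length, Mcoln3 was thus by far the most abundant of the family in Mc, whereas Mcoln1 was the most abundant in the other fractions.

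**Figure D4:**
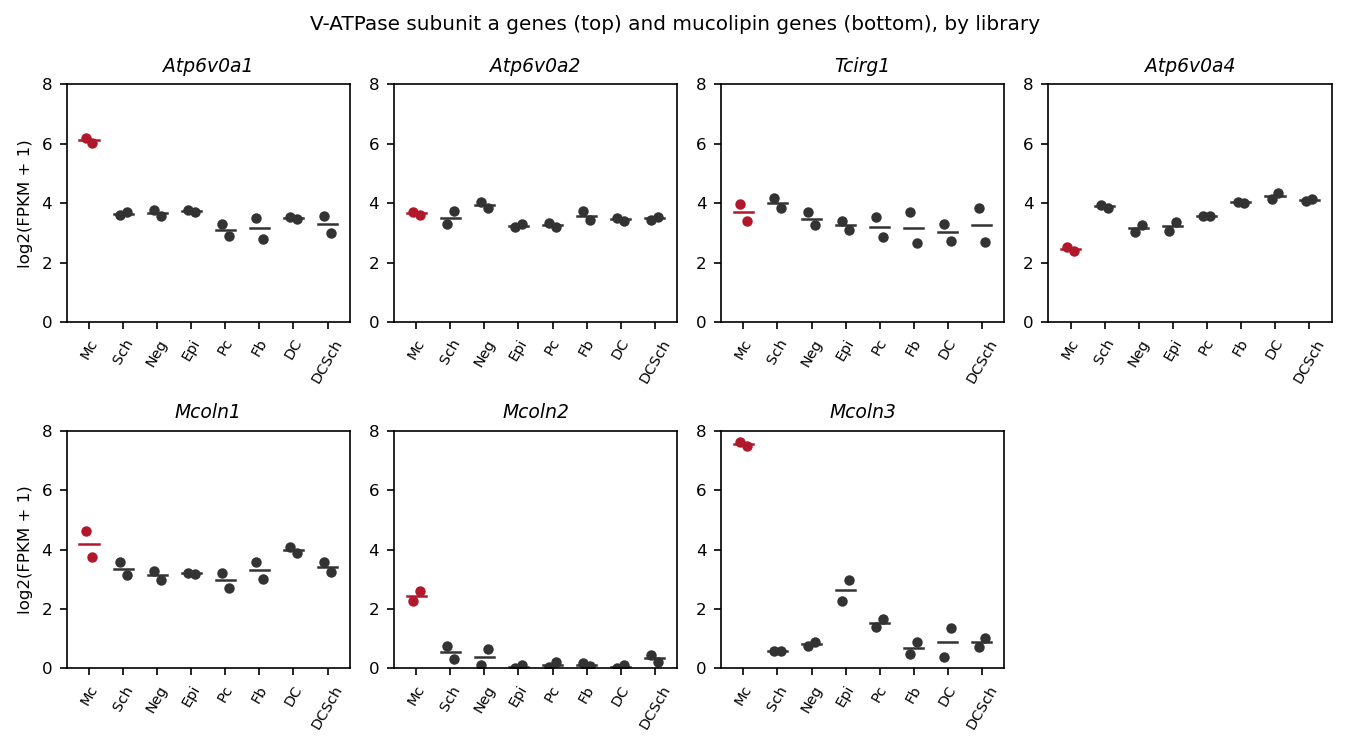
Level, as log2(FPKM + 1), of the 4 genes of the large V-ATPase a subunit (top) and of the mucolipin genes (bottom) in each library, Mc at the left, with the mean of each fraction as a line. Atp6v0a1, Mcoln2 and Mcoln3 are higher in Mc, Atp6v0a4 is lower, and Atp6v0a2, Tcirg1 and Mcoln1 were not called.

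Of the MiT factors, Mitf had 115 and 167 FPKM in Mc and 0.416 to 6.52 FPKM in the 12 libraries (5.59, SE 0.28, limma adjusted p = 8.16e-08), which is a marker of the fraction. Tfeb had 5.88 and 7.81 FPKM in Mc and 0.121 to 2.89 FPKM in the 12 libraries, and was higher by 1.89 (SE 0.38, limma adjusted p = 0.00392). Tfe3 had 11.2 and 6.09 FPKM in Mc and 6.57 to 18.6 FPKM in the 12 libraries, and was not called (-0.25, SE 0.24, adjusted p = 0.532). Tfec was under the filter on low values. Among 11 genes of the platform that recruits mTORC1 to the lysosome, 3 were called higher and 0 lower (5.22% and 5.80% of all rows). They were Rragd (1.30), a Rag GTPase, Flcn (1.16), a GTPase-activating protein for Rag GTPases, and Lamtor1 (1.12), the anchor of the Ragulator complex. Their limma adjusted p-values were 0.000430, 0.000195 and 0.00810. Rragd was higher still in Neg, with 7.55 and 8.52 FPKM in Mc and 13.6 and 21.6 FPKM in Neg.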

How the data were processed

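RNA of 16 libraries from 8 sorted fractions of mouse embryonic skin was analysed from 1 table of FPKM values that the authors deposited, with 23235 rows and a column per library, each column matched to its sample by name. Per the submitters' processing notes, TopHat2 2.0.3, Bowtie2, Cufflinks 2.1.1 and the mm10 build were used, in roles that are not stated. FPKM is relative to the fragments of a library, and whether values were further scaled between libraries is not stated. The file gives no counts and the depth of the libraries is unknown, so no counting interval is given.

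From these values, log2(FPKM + 1) was computed, with a pseudocount of 1, for the 14171 rows that reached 1 FPKM in 2 or more libraries. It was fitted with limma 3.58.1 in R 4.3.3, with 1 mean per fraction over all 16 libraries and a trended, robust estimate of the spread shared by all fractions. Adjusted p-values are those of Benjamini and Hochberg over all rows. For genes of low FPKM, differences on this scale are smaller than the true change. The fit was checked on simulated data with independent noise in each library, which leaves out the pairing of libraries by replicate number described below. In the table, 434 rows share a symbol with another row, and none of the genes named is among them. Rows of Ctsa, Ctsb, Ctsz, Npc1, Atp6v1b2, Atp6v0a4, Scpep1, Cpq, Clcn5 and Igf2r share a locus with other rows, those of neighbouring or overlapping genes.

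Libraries with the same replicate number deviated together from the means of their fractions in each of 28 fraction pairs (correlations across genes 0.148 to 0.656, median 0.491). The numbers therefore count as pairing the samples. The main model has no replicate term, and values with a replicate block are printed only where a call, or a count by more than 1.5 times, changes.

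The 44 genes, the second list and the marker lists were chosen with earlier results of these data known. By rule, full statistics in Mc covered up to 12 of the 44 genes with the largest positive difference. They also covered up to 6 with the largest negative difference. The rule took up to 4 per direction in the other comparisons and up to 6 per direction of the second list. Other genes are named with their values as members of their class, many with SE and adjusted p-value as well, beyond that rule. Promoter windows are those of RefSeq on GRCm38.p6, matched by symbol, and gene positions are those of the deposited table, written 1-based on mm10. Alternatives were another pseudocount, no filter, libraries rescaled to the same total, quantile normalization, only the fractions compared in the fit, the replicate block, no fold minimum and each library left out in turn. Leaving Epi out of the mean of the other fractions was chosen after the data were seen.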

Additional observations from a re-analysis of the deposited data

How the results depend on the processing

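No direction reversed among the log2 differences recomputed. In Neg, however, the split of the 44 genes turned from 1 higher and 2 lower to 6 higher and 4 lower with no fold minimum. Of the counts of the 44 genes, that higher in Mc than in the 6 fractions (21) stayed between 19 and 23 when each library was left out, and that of the second list (16) between 12 and 18, reaching 26 with no fold minimum. The count lower in Mc was 1 with a pseudocount of 0.1 and with no fold minimum, 2 when Epi was left out of the mean (Ctsh at -1.18 and Ctsk at -1.001), and 0 to 1 when each library was left out. Leaving Epi out of the mean also took Grn (0.98) and Atp6v0d1 (0.999) under the fold minimum, so that both lost their call as higher. The genes higher than each of the 6 fractions (8) were 5 with no filter on low values and 4 to 8 when each library was left out. For Neg, 0 were higher with libraries rescaled to the same total, 6 higher and 4 lower with no fold minimum, and 0 to 3 higher when each library was left out, and rescaling moved the median of all rows to -0.20 and their split to 1008 higher and 866 lower, where 1209 and 671 were called as deposited. Between Epi and Fb, 2 were higher after rescaling and 8 with no fold minimum, and between DC and Fb 0 were higher with only those fractions in the fit and 7 with no fold minimum. Between Pc and Epi, 0 were lower with a pseudocount of 0.1 and with only those fractions in the fit, 2 with the replicate block, and 0 to 1 when each library was left out. Beside Mcoln3 there, Atp6v0b in Mc against Epi, and Hexa, Ostm1 and Atp6v0c among the genes higher than each of the 6 fractions (11 with the block), the replicate block changed no call of the 44 genes in the comparisons of the report, those of Mc with each single fraction included. The causes of these shifts were not tested, beyond fewer libraries or more rows entering a fit. With 2 libraries a fraction, a lone library left in a fraction is assumed to vary like the others.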

Other observations

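In Neg, 7 genes of the second list were called higher than in the 5 fractions Sch, Epi, Pc, Fb and DC and 1 lower (8.53% and 4.74% of all rows), named here after their values were seen. They were led by Laptm5 (3.91), a lysosomal membrane protein of blood cells, Ctse (2.93), an aspartic protease, Ctss (2.32), a cysteine protease of antigen-presenting cells, and Clcn5 (2.31), an endosomal chloride-proton exchanger, followed by Laptm4b (1.27), Igf2r (1.196) and Man2b1 (1.02). Slc36a1 was lower (-1.48). The summed markers of Neg stand beside them, at 163 and 159 FPKM for macrophages, 970 and 1174 FPKM for mast cells, 277 and 195 FPKM for endothelium and 32005 and 34818 FPKM for embryonic globins, and their part was not tested.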
